A study of Mus musculus with 9 samples.

Results

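CpG methylation at 6 genes of the interferon regulatory factor (IRF) family, Irf1, Irf2, Irf4, Irf5, Irf7 and Irf8, was compared between naive B cells, plasmablasts and plasma cells of the mouse spleen. A CpG belonged to a gene when the deposited table named that gene as the closest by transcription start site, and it was used when each of the 9 libraries had at least 10 reads over it. Of 606 deposited CpGs of these genes 247 met that minimum, out of 356320 CpGs in the whole table: 145 at Irf8, 45 at Irf2, 39 at Irf1, 11 at Irf5, 5 at Irf4 and 2 at Irf7. A CpG assigned by distance need not lie in its gene or act on it.

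IRF proteins share a DNA binding domain that reads GAAA repeats, and they carry signals from interferon and pathogen receptors to the genome. In the B lineage Irf4 and Irf8 have a further role: with the factor PU.1 (encoded by Spi1) they run the B cell program, and a high dose of Irf4 is needed for plasma cells to form, while Irf8 is a factor of B cells, dendritic cells and macrophages. Methylation of cytosine in CpGs near a start site or in an enhancer usually goes with a silent element, and a level of 0% means that no read over the CpG was methylated.

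The mice were C57Bl/6J females aged 10 weeks, and the spleen was the source of each of the 3 libraries per stage. Naive B cells were sorted as B220+ CD43- from untreated mice. Plasmablasts (intermediate B220, CD138+) and plasma cells (low B220, CD138+) were sorted on day 3 after lipopolysaccharide (LPS), a bacterial product that drives B cells to divide and to secrete antibody. DNA cut with MspI was read after bisulfite treatment (reduced representation bisulfite sequencing, RRBS), so that only CpGs close to CCGG sites were seen, and no RNA was measured here. The labels do not say which animals each library came from. A level between 0% and 100% in sorted cells can be a mixture of cells or a difference between alleles, which cannot be told apart here.

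Libraries held 16037172 to 29948088 reads over CpGs, and the 247 CpGs had a median of 25 to 39 reads per library. Naive B cells 1 and the 3 plasma cell libraries had 0.332% to 1.05% methylation over 18 mitochondrial CpGs, whereas naive B cells 2 and 3 and the 3 plasmablast libraries had 2.77% to 7.18%. Hence comparisons are also given inside each of these sets, as plasmablasts against naive B cells 2 and 3, and as plasma cells against naive B cells 1. Near the start sites of the B cell genes Cd79b and Pax5 naive B cells had 2.71% and 1.35%, against 96.4%, 63.8% and 14.2% at the T cell genes Cd5, Tcf7 and Lck and 2.54% at the NK cell gene Eomes. Of the marker lists, 3 of 9 T cell genes, 1 of 4 NK cell genes and no myeloid or erythroid gene had CpGs there to read, so the purity of the sort was not tested further.

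The start sites of the family that the libraries read were low in methylation in every stage. An inner start site of Irf2 had no tested CpG within 1 kb. At Irf7 6 CpGs within 250 bp missed the coverage minimum, with 18 and 11 summed reads in naive B cells 2 and 3. Their summed levels had means of 3.32%, 3.45% and 1.10% in naive B cells, plasmablasts and plasma cells. The 250 bases upstream of 3 of them are shown because they hold the start-site CpGs that the libraries read (RefSeq, GRCm38.p6, plus strand). Capitals mark each CG that matched a CpG of the deposited table.
Irf4, chr13:30748983-30749232: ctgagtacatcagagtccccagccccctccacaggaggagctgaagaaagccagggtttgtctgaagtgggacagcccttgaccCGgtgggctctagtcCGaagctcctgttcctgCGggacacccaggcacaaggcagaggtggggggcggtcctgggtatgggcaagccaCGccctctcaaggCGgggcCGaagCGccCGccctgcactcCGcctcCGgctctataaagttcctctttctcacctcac
Irf8, chr8:120736108-120736357: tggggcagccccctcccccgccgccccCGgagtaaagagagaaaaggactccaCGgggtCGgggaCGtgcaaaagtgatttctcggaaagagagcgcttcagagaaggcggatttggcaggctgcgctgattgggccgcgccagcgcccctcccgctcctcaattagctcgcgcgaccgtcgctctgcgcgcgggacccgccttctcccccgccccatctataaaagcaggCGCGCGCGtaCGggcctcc
Irf1, chr11:53769764-53770013: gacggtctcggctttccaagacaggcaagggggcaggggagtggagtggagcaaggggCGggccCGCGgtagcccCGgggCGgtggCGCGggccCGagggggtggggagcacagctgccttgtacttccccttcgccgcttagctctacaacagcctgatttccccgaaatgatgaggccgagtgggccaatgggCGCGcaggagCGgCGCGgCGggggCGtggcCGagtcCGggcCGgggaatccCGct
The deposited positions are in build mm9, so each window was placed by the one shift at which every deposited CpG around the start fell on a CG, which took in 10 CpGs at Irf4, 13 at Irf8 and 25 at Irf1. The upstream windows held 11 CGs at Irf4, 29 at Irf8 and 25 at Irf1, of which 10, 9 and 19 were read, against a median of 6 CGs over 32851 mouse promoter windows of the same length. Reads summed over the capitals were methylated at 0.249% (naive), 3.82% (plasmablast) and 0.156% (plasma cell) at Irf4. The Irf4 sums rest on 402, 131 and 642 reads, and most of the naive B cell reads (371) came from naive B cells 1. The same sums gave 1.65%, 5.98% and 0.954% at Irf8, and 1.02%, 3.09% and 1.06% at Irf1. In all 3 windows plasmablasts were the highest stage, and the part in this of the library differences at mitochondrial CpGs was not tested. The MspI site CCGG occurred 2 times in the Irf4 window, 1 time in that of Irf8 and 3 times in that of Irf1, and at least once in 47.1% of all windows. TATAAA was found on one of the strands at Irf4 and Irf8 (12.4% of all windows), and GAAANNGAAA, 2 GAAA blocks at the spacing bound by IRF proteins, was found in none of the 3 and 1 time in the Irf2 window, which is not shown (2.98% of all windows). These matches describe letters only.

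Called losses of methylation at the 6 genes lay almost wholly at CpGs more than 1 kb from a start site. A CpG was called lower or higher when its adjusted p in the quasi-binomial model was under 0.01 and the pooled levels differed by at least 20 percentage points. Of 61 CpGs within 1 kb of a start site, 59 stood under 20% in naive B cells and could not meet that limit. The calls therefore cannot show whether loss depended on distance. In plasmablasts 23 of the 247 CpGs were lower than in naive B cells and 1 was higher, beside 10.5% lower and 0.0634% higher of all tested CpGs. In plasma cells 56 were lower and 2 higher, beside 22.6% and 0.0443% of all tested CpGs. The shares of lower CpGs at the 6 genes were thus near those of the whole table. The shares of higher CpGs were above those of the whole table but rest on 1 and 2 CpGs. With the library set as a term in the model 30 were lower in plasma cells and 0 higher. Of the 56 CpGs lower in plasma cells 42 were at Irf8, 6 at Irf2, 4 at Irf1, 3 at Irf4, 1 at Irf7 and none at Irf5. The fall had a median of 27.6 points and reached 69.6 points. At 21 CpGs the level was lower in both stages. Tested within the set of plasma cells and naive B cells 1 alone, which has 1 control library, 22 were lower.

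Where the CpG stood in naive B cells set apart those that could fall. Of 98 CpGs that began at 80% or more 39 (39.8%) were lower in plasma cells, beside 33.2% of all such CpGs, and 15 (15.3%) were lower in plasmablasts, beside 16.2%. With 90% as the limit, 25 of 81 (30.9%) and 7 (8.64%) were lower, beside 30.3% and 14.7%. Of 31 CpGs between 20% and 80%, 17 were lower in plasma cells, beside 29.9% of all such CpGs in the whole table, and 8 in plasmablasts, beside 10.2%. Both counts out of 31 were above the whole-table shares, a difference that was not tested. None of the 118 CpGs under 20% could fall by 20 points. Loss was mostly partial: of the 98, 44 still stood at 80% or more in plasma cells and 1 was under 20%. By class, 37 of 120 intergenic, 13 of 67 intron, 3 of 15 exon and 3 of 45 promoter CpGs were lower in plasma cells, beside 31.7%, 25.5%, 11.4% and 7.84% of all tested CpGs of each class. In plasmablasts 12, 6, 1 and 4 were lower, beside 15%, 12.1%, 4.72% and 3.18%. The 3 promoter CpGs lower in plasma cells were those of Irf4. The authors' deposited lists hold 10 of the 247 CpGs for plasmablasts and 39 for plasma cells, all of them also called here. Those lists rest on the same reads and like limits, so the overlap is no separate evidence. They hold 1.93% and 10.6% of all deposited CpGs, most of which missed the coverage minimum used here. These shares therefore have another base than the counts out of 247 and cannot be set against them.

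**Figure D1:**
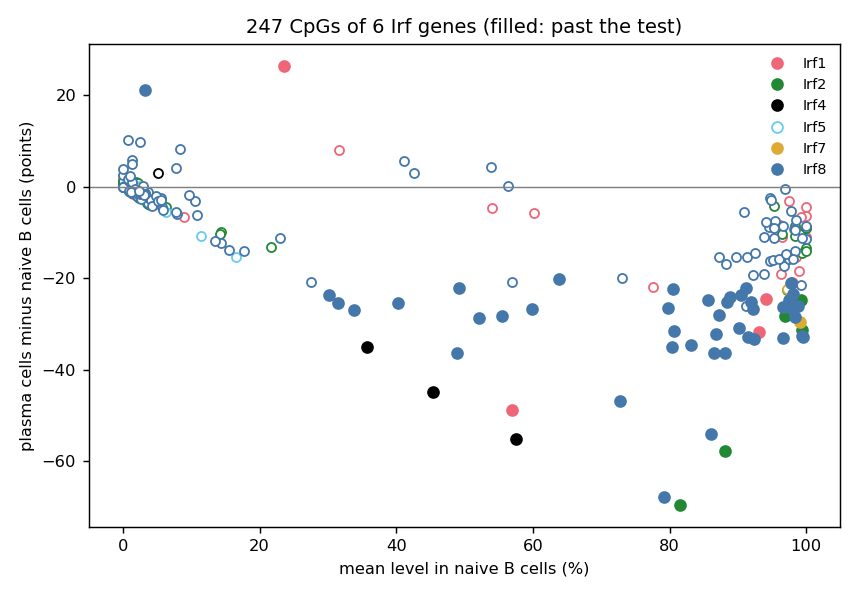
Change from naive B cells to plasma cells (percentage points, mean of 3 libraries per group) against the mean level in naive B cells (%) for 247 CpGs of 6 Irf genes. Filled points passed the test; they include 56 falls and 2 rises, the lowest points are CpGs of Irf2 and Irf8, and the 3 filled CpGs of Irf4 start between 35.7% and 57.5%.

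At Irf4, the gene whose product drives plasma cell formation, 3 CpGs between -1379 and -1153 bp from the start site (mm9, chromosome 13, 30839747 to 30839973, promoter class) lost almost all methylation. The CpG at -1379 bp stood at 44.9%, 60.3% and 67.3% in naive B cells 1 to 3, at 9.26%, 5.97% and 8.93% in plasmablasts, and at 5.66%, 0% and 1.59% in plasma cells. At -1367 bp the levels were 25.6%, 42.9% and 38.5%, then 1.89%, 5.97% and 3.57%, then 1.89%, 0% and 0%. At -1153 bp they were 44.7%, 50% and 41.5%, then 13.0%, 16.7% and 20.5%, then 0%, 0% and 1.37%. No naive B cell library overlapped a later stage at any of the 3 CpGs, and naive B cells 1 was the lowest of its group at -1379 and -1367 bp. The 3 CpGs had 23 to 126 reads per library, and a level of 0% allows up to 2.38% to 7.5% at these depths (3 reads of the total, counting error only).

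The falls at these 3 CpGs passed the test in both stages. Pooled levels fell by 48.0, 30.7 and 28.1 points in plasmablasts (adjusted p = 5.62e-17, 7.94e-10 and 0.000463) and by 53.8, 34.3 and 44.9 points in plasma cells (adjusted p = 6.76e-30, 1.2e-18 and 3.42e-17). Inside the library sets the 3 differences of library means were -55.76, -36.8 and -29.0 points in plasmablasts and -42.5, -25.01 and -44.3 points in plasma cells. Among all promoter CpGs that stood at 20 to 80% in naive B cells, 7.42% were lower in plasmablasts and 25.3% in plasma cells. From plasmablasts to plasma cells, at -1153 bp the level fell by a further 16.8 points (adjusted p = 0.000586, under the 20 points that a call needs), while at -1379 and -1367 bp the further 5.79 and 3.55 points did not pass (adjusted p = 0.148 and 0.17). Whether the 3 CpGs differ in this step was not tested. Over the 3 CpGs together the level went from 46.0% ± 7.72 to 8.57% ± 1.67 in plasmablasts and 1.16% ± 1.30 in plasma cells (SD over 3 libraries).

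The other Irf4 CpGs at the coverage minimum were low from the outset. In the gene's intron at +1616 bp the level was 0%, 5.88% and 0% in naive B cells, 4.76%, 18.5% and 5.71% in plasmablasts, and 2.27%, 1.41% and 0% in plasma cells, with no call, where 0% allows up to 4.41% to 23.1%. At -26430 bp, between genes, it was 3.92%, 6.67% and 5%, then 14.04%, 26% and 13.7%, then 12.2%, 3.57% and 8.91%. There all 3 plasmablast libraries were above the naive B cell libraries (by 12.8 points, adjusted p = 0.00563), which is under the 20 points of a call.

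A second site of loss lay further upstream of Irf4, at 4 intergenic CpGs between -16458 and -16129 bp that missed the coverage minimum. Summed over them, naive B cells stood at 83.9% (31 reads), 93.6% (109 reads) and 83.8% (80 reads). Plasmablasts stood at 3.85%, 28.6% and 11.3% (52 to 63 reads) and plasma cells at 9.33%, 11% and 4.48% (75 to 134 reads). The libraries of naive B cells and of the later stages are far apart here, and plasmablasts 2 was the highest of the later libraries. Under the alternative filter of 10 reads summed per group, which takes in all 606 CpGs, the 3 CpGs from -16458 to -16433 bp were lower in plasmablasts by 79.3, 80.6 and 78.9 points (adjusted p = 1.86e-07, 2.48e-07 and 7.38e-08). All 4 were lower in plasma cells, by 70.4 to 84.6 points. Under that filter 6.01% and 15.9% of all CpGs were lower in plasmablasts and plasma cells, and of 41 Irf4 CpGs 6 and 12 were lower. The 12 include 3 neighbours of the CpG at -26430 bp, at -26595, -26263 and -26254 bp (falls of 23.3, 29.1 and 36.0 points), and the CpGs at -19811 and -19762 bp (falls of 56.2 and 53.3 points), which had 0 or 1 read in each of naive B cells 2 and 3. The authors' deposited lists of differential CpGs, which rest on the same reads, hold 3 of the 4 CpGs from -16458 to -16129 bp for plasmablasts and all 4 for plasma cells.

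**Figure D2:**
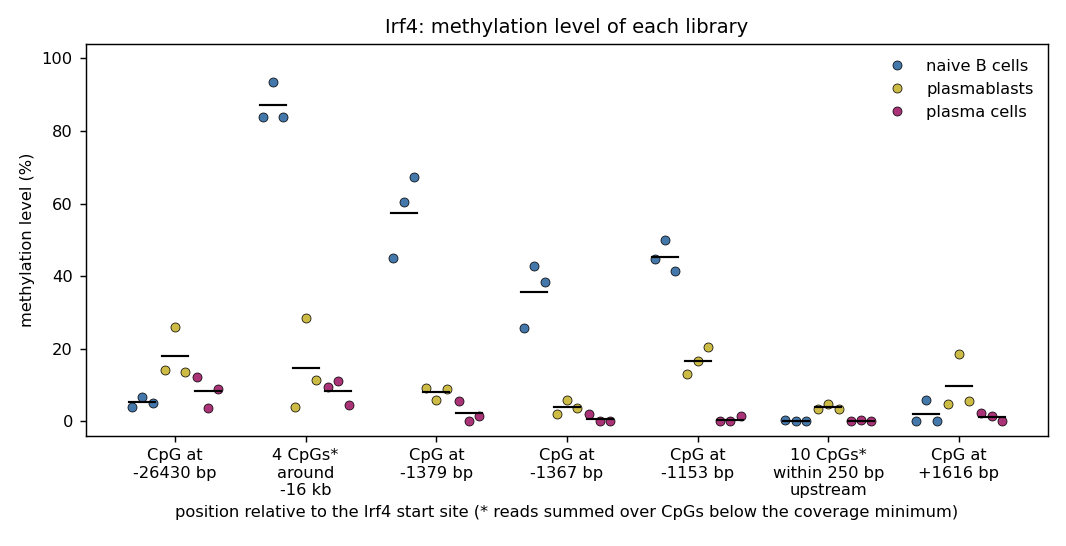
Methylation level (%) at Irf4 in each of the 9 libraries, by position relative to the start site; points are libraries, bars are group means, and positions with an asterisk are sums of reads over CpGs below the coverage minimum. Naive B cells stand at 25.6% or more at -1379, -1367 and -1153 bp and at 83.8% or more around -16 kb, while all later libraries there are at 28.6% or less.

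Irf8, a factor of B cells and myeloid cells, held most of the CpGs and most of the losses. Of its 145 CpGs 14 were lower in plasmablasts and 42 in plasma cells, beside 10.5% and 22.6% of all tested CpGs. In plasma cells 1 of its CpGs was higher, beside 0.0443%. Its start region was low in methylation: over 27 CpGs from -935 to +276 bp the median CpG level was 1.33%, 3.64% and 1.27% in the 3 stages, although the CpG at -935 bp stood at 73.0% ± 9.43, 62.0% ± 13.3 and 53.2% ± 6.02 (no call). One of these 27, picked out after its values were seen, was lower in plasmablasts. At -653 bp the level was 25%, 28.6% and 29.2% in naive B cells, 10%, 0% and 0% in plasmablasts, and 15%, 5.26% and 0% in plasma cells. The fall was 24.1 points in plasmablasts (adjusted p = 0.00448) and 20.9 points in plasma cells (adjusted p = 0.0123, no call), on 13 to 28 reads per library, at which 0% allows up to 14.3% to 23.1%.

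Upstream of Irf8 most of the CpGs lower in plasma cells lay in 2 stretches, which were the upstream stretches that began with high methylation. The stretches from -11.1 to -10.8 kb and from -935 to +276 bp stood at 4.28% and 4.52% in naive B cells, which left little to lose. The places of the falls therefore depend on where methylated CpGs were read. The stretch from -30.9 to -30.6 kb (mm9, chromosome 8, 123229386 to 123229647) holds 6 CpGs, all 6 of them lower in plasma cells and 4 in plasmablasts. Summed over the stretch, naive B cells stood at 88.5%, 82.0% and 88.4%, plasmablasts at 52.6%, 61.7% and 54.1%, and plasma cells at 43.3%, 42.0% and 46.3%. The 3 stages do not overlap, and the fall was 30.1 points in plasmablasts and 41.7 points in plasma cells (adjusted p = 3.9e-06 and 8.76e-09). Within the stretch the CpGs differed. The one at -30628 bp went from 86.2%, 81.4% and 70% to 18.2%, 34.5% and 30% and to 15.4%, 8% and 10.8%, where it fell by 65.99 points in plasma cells (adjusted p = 1.49e-17). Its neighbour at -30650 bp fell by 54.0 points (adjusted p = 3.9e-12), while the CpG at -30889 bp, chosen after its values were seen, fell by 28.1 points.

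In the other upstream stretch with high starting methylation, 8 CpGs from -4.42 to -4.18 kb, the larger part of the loss was seen in plasma cells. Naive B cells stood at 94.1%, 93.6% and 93.4%, plasmablasts at 84.0%, 84.7% and 86.8%, and plasma cells at 78.0%, 69.7% and 67.2%. This is 1 of 2 stretches of the 6 genes (of 33, beside 1.5% of all stretches) whose level was lower in plasma cells than in plasmablasts, by 13.2 points (adjusted p = 0.00835). At its CpG at -4421 bp, chosen after its values were seen, plasmablasts were at 95.2%, 90.5% and 94.4%, no lower than naive B cells at 90.3%, 88.9% and 92.0%, and plasma cells were at 78.3%, 61.5% and 60.7%. The other stretch with such a step was 6 intergenic CpGs near Irf2, from 7.68% ± 3.98 to 1.70% ± 0.705, a change of -6.44 points (adjusted p = 0.00895). There plasmablasts 2 alone stood above 10% (12.3%). Neither stretch was called without naive B cells 3, plasmablasts 2, plasma cells 2 or plasma cells 3, with the library set as a term, or by limma. The count was 1 without plasmablasts 3, 5 without naive B cells 1 and 4 without plasma cells 1.

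Of 100 intergenic CpGs of Irf8 36 were lower in plasma cells, beside 31.7% of all tested intergenic CpGs. Downstream of the gene 25 of them were lower, 20 of these more than 90 kb from the start site and so nearest to Irf8 only by distance. The largest fall was at +124561 bp, where levels of 72.7%, 65.5% and 80% in naive B cells became 63.0%, 46.9% and 61.5% in plasmablasts and 26.5%, 34.8% and 16.7% in plasma cells. The fall of 47.1 points in plasma cells passed the test (adjusted p = 3.58e-07), and the change of -16.9 points in plasmablasts did not (adjusted p = 0.113). Over the 4 CpGs from +157.1 to +157.3 kb the level went from 52.6% ± 6.78 to 31.1% ± 7.92 and 24.7% ± 5.58, and over the 6 from +95.7 to +95.9 kb from 24.5% ± 2.74 to 13.6% ± 9.21 and 4.93% ± 0.569. Both stretches were lower in plasma cells (adjusted p = 4.67e-05 and 3.03e-05), and only the first was called in plasmablasts (adjusted p = 0.00136 and 0.0273). Within the gene body 6 CpGs of Irf8 were lower in plasma cells. They were 3 of 9 exon and 3 of 18 intron CpGs, beside 11.4% and 25.5% of all tested CpGs of those classes.

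A single Irf8 CpG gained methylation. At +21273 bp, classed as intergenic, the level was 5.56%, 0% and 4.08% in naive B cells, 5.71%, 5.71% and 25% in plasmablasts, and 25%, 24% and 24.1% in plasma cells. The plasma cell libraries were alike, and the gain of 21.2 points passed the test (adjusted p = 4.27e-05). Without naive B cells 2 it was 19.6 points, just under the limit of a call, and a term for the library set gave an adjusted p of 0.0538. Its 2 neighbours in the same stretch were not called. Of the Irf8 CpGs that began at 80% or more, those at +139822 and +139781 bp had the smallest change in pooled level in plasma cells. They stood at 96.9% ± 2.70 and 94.7% ± 5.84 in naive B cells, 84.9% ± 10.9 and 86.1% ± 5.70 in plasmablasts, and 96.3% ± 3.57 and 92.2% ± 7.69 in plasma cells, with no call. The stretch of 6 CpGs that holds both was lower in each later stage, with changes of -14.3 and -10.8 points (adjusted p = 9.66e-05 and 0.000814).

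**Figure D3:**
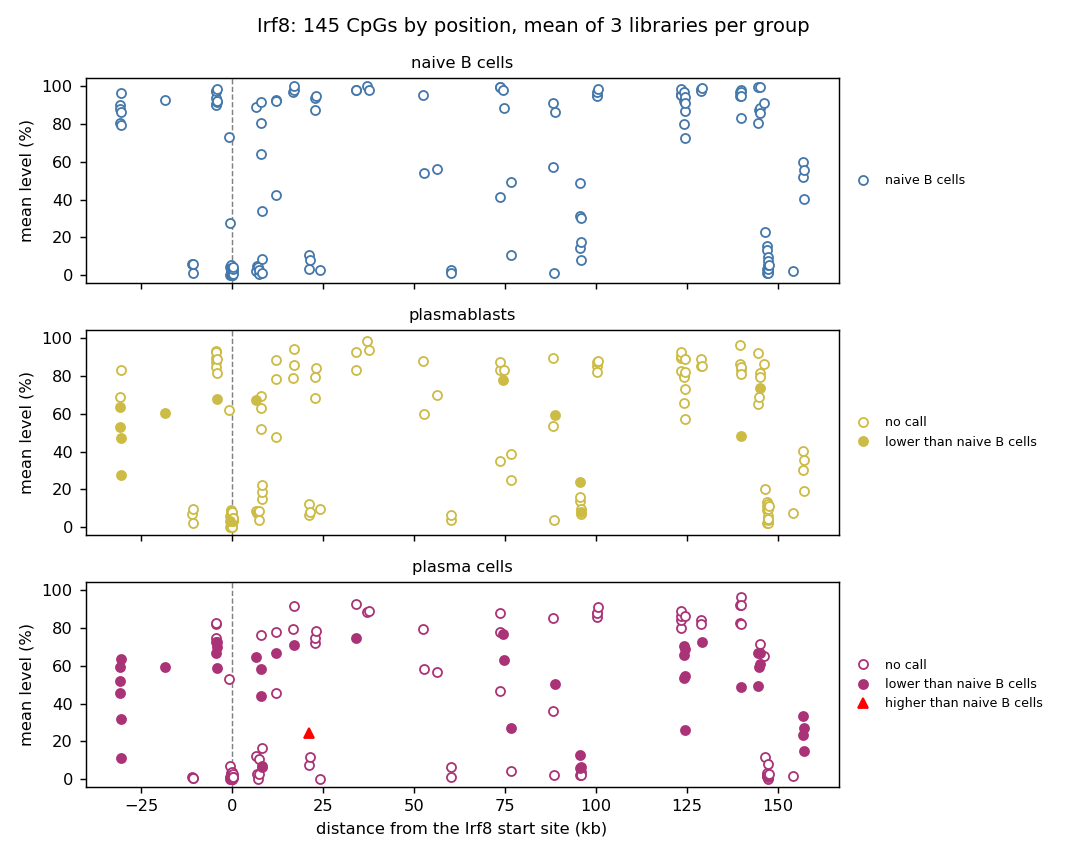
Mean methylation level (%, 3 libraries per group) of 145 Irf8 CpGs against distance from the start site (kb), 1 panel per stage; filled circles were lower than in naive B cells and the triangle was higher. The start site has levels near 0% in all 3 panels, and the filled circles (14 in plasmablasts, 42 in plasma cells) lie upstream, in the gene and up to 157 kb downstream.

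Irf2, which can repress interferon responses, had its calls inside its own introns. Of 36 intron CpGs 6 were lower in plasma cells and 4 in plasmablasts, beside 25.5% and 12.1% of all tested intron CpGs. These counts were thus not above the whole-table shares. Its CpGs within 2 kb of the first start site had median levels of 2.00%, 3.03% and 0.521% in the 3 stages. The largest fall of all 247 CpGs was in an Irf2 intron, 2802 bp after an inner start site of the gene (chromosome 8, 47894628). There naive B cells stood at 74.5%, 79.4% and 90.6%, plasmablasts at 22.2%, 36% and 28.8%, and plasma cells at 12.5%, 20% and 3.64%. The 3 stages do not overlap, and the falls were 49.9 and 69.6 points (adjusted p = 1.74e-10 and 9.82e-23). Near it, at +2611 bp of that inner start, the level went from 100%, 98.0% and 100% to 77.8%, 80% and 77.8% and to 73.0%, 68.6% and 62.5%, a smaller fall of 31.3 points in plasma cells (adjusted p = 1.66e-11). At +16513 bp of the first start site, also in an intron, the level went from 88.6%, 85.2% and 90.5% to 53.6%, 41.4% and 60% and to 38.8%, 13.5% and 39.0% (falls of 36.8 and 56.5 points, adjusted p = 3.85e-05 and 1.28e-12). Close by, the CpGs at +16725 and +16977 bp stood at 98.4% and 95.3% in naive B cells and at 89.7% and 91.0% in plasma cells, with no call. At +16725 bp the fall of 7.84 points had an adjusted p of 0.0054 and was under the 20 points of a call. The stretch of 5 CpGs that holds all 3 was lower in both later stages, with changes of -9.93 and -18.5 points (adjusted p = 0.00143 and 9.83e-06). Calls within 1 stretch thus differed from CpG to CpG, and whether the falls themselves differed was not tested.

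Irf1, an activator induced by interferon, had its calls outside the gene. Its 14 CpGs within 1 kb of a start site had median levels of 1.26%, 2.75% and 1.12%. All 11 CpGs classed as intron lie in the noncoding gene Gm12216, downstream of Irf1. One of them, at +33433 bp, went from 60.4%, 67.5% and 42.9% to 8.33%, 18.2% and 13.2% in plasmablasts and 10%, 5.88% and 8.82% in plasma cells (falls of 45.1 and 50.3 points, adjusted p = 2.75e-09 and 1.24e-14). Another, at +16358 bp, was higher in both stages. It stood at 26.7%, 27.5% and 16.7% in naive B cells, 83.3%, 63.9% and 45.8% in plasmablasts, and 65.2%, 46.2% and 38.5% in plasma cells, on 12 to 51 reads.

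The gain at +16358 bp was 37.6 points in plasmablasts (adjusted p = 0.000144) and 29.5 points in plasma cells (adjusted p = 0.00487). All later libraries were above all naive B cell libraries, although the later libraries ranged widely. In plasma cells the call was lost without naive B cells 3 (25.8 points, adjusted p = 0.0318) or without plasma cells 1 (18.8 points, adjusted p = 0.156), and in plasmablasts it held without any 1 library. When the library set was modelled it had an adjusted p of 0.223 in plasma cells, and by limma 0.0296. Upstream of Irf1, at -16861 bp, the level went from 96.1%, 100% and 83.3% to 81.6%, 82.5% and 91.3% in plasmablasts and to 65%, 57.1% and 61.9% in plasma cells. The fall of 31.6 points in plasma cells passed the test (adjusted p = 4.98e-05), but not without naive B cells 1 (27.8 points, adjusted p = 0.0165). At +35378 bp the fall of 23.2 points in plasma cells (adjusted p = 0.000685) likewise did not pass without naive B cells 2 (21.5 points, adjusted p = 0.015) or when the library set was modelled (adjusted p = 0.269). The CpGs at +11772 and -17029 bp had the smallest change in pooled level in plasma cells among the methylated ones of Irf1, with no call. They stood at 97.4%, 89.2% and 94.4%, and at 99.3%, 93.9% and 92.6%, in the 3 stages. The stretches that hold them were lower in both later stages, with changes of -9.08 and -8.66 points around +11772 bp and of -7.06 and -10.2 points around -17029 bp.

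Irf7, the main driver of type I interferon genes, had 2 CpGs at the minimum, both inside the gene. At +1868 bp, in an intron, the level was 100%, 97.1% and 100% in naive B cells, 41.2%, 69.6% and 87.5% in plasmablasts, and 68.4%, 75% and 65.2% in plasma cells. The falls of 32.7 and 29.8 points passed the test (adjusted p = 1.78e-05 and 1.8e-05), and the plasmablast libraries lay further apart than those of plasma cells. When the library set was modelled the plasma cell fall had an adjusted p of 0.0182. At +2131 bp, in an exon, the fall of 19.8 points in plasma cells (adjusted p = 0.0022) was just short of the 20 points of a call. It was past them, by 20.4 to 29.9 points, without naive B cells 1, naive B cells 2, plasma cells 1 or plasma cells 3. Irf5, which acts downstream of Toll-like receptors, had 11 CpGs, all of promoter class. They stood at 4.69% ± 1.90, 4.71% ± 2.40 and 1.42% ± 0.455 in the 3 stages, and the highest single CpG went from 16.53% to 2.59%, so that no fall of 20 points was possible.

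**Figure D4:**
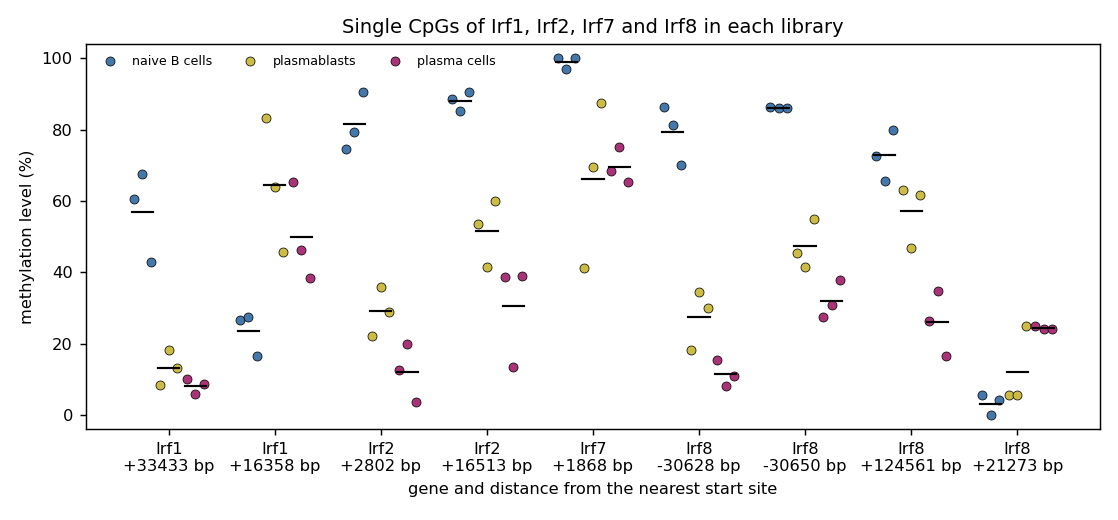
Methylation level (%) of 9 CpGs of Irf1, Irf2, Irf7 and Irf8 in each of the 9 libraries; points are libraries, bars are group means, and labels give the distance from the nearest start site (bp). The Irf1 CpG at +16358 bp (16.7% to 27.5% in naive B cells) and the Irf8 CpG at +21273 bp (0% to 5.56%) stand higher in plasma cells, and the others stand lower.

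Averaged over each gene's CpGs with equal weight, the 3 stages came in the same order at 5 of the 6 genes, among them Irf7 with 2 CpGs. How many of all genes have this order was not counted. By summed reads plasmablasts stood above naive B cells at Irf1 (48.5% against 47.1%) and Irf2 (38.1% against 35.6%), with no call. The order at these genes thus depends on the weighting. Irf4 went from 29.1% ± 4.79 (naive) to 11.2% ± 3.08 in plasmablasts and 2.59% ± 1.71 in plasma cells. Irf8 went from 50.9% ± 1.04 to 44.3% ± 2.31 and 38.4% ± 2.15, and Irf2 from 39.0% ± 1.37 to 34.5% ± 1.60 and 29.4% ± 1.19. Irf1 went from 43.9% ± 1.86 to 41.7% ± 1.5 and 37.2% ± 1.23, where naive B cells and plasmablasts overlapped. With reads summed over a gene instead, which weights CpGs by depth, 1 of 5 testable genes (Irf4) was lower in plasmablasts and 2 (Irf4 and Irf8) in plasma cells, beside 26.1% and 67.8% of 14220 genes. The Irf4 call in plasmablasts (21.8 points, adjusted p = 0.00885) was lost without naive B cells 2 or 3, without any 1 plasmablast library, or without plasma cells 2 or 3 (adjusted p 0.0131 to 0.0344), and held without naive B cells 1 or plasma cells 1. By the summed reads Irf1 and Irf2 missed the threshold in plasma cells (adjusted p = 0.0137 and 0.0125) and were lower there by limma on equal weights (adjusted p = 0.00135 and 4.66e-05). Without plasma cells 1 both passed by the summed reads as well (14.1 and 13.0 points, adjusted p = 0.00141 and 0.00103).

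**Figure D5:**
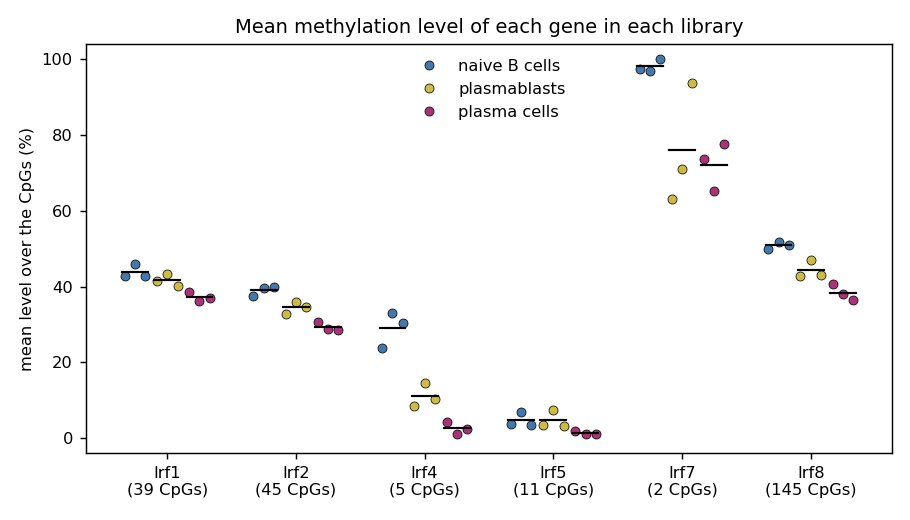
Mean methylation level (%) over the tested CpGs of each gene in each of the 9 libraries, with equal weight for each CpG; points are libraries and bars are group means. Irf4 drops from 29.1% to 2.59% between naive B cells and plasma cells, Irf8 from 50.9% to 38.4%, and Irf5 stays under 10% in all libraries.

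Split by class, 12 segments of the genes had at least 3 CpGs. In plasmablasts the Irf4 promoter was lower (36.7 points, adjusted p = 6.75e-05), beside 34% of all segments. In plasma cells 5 of 12 were lower (58.2% of all segments): the Irf4 promoter, the intron-class CpGs assigned to Irf1 (in Gm12216), the Irf2 introns, and the Irf8 exons and intergenic CpGs. At the Irf2 introns the libraries overlapped, with naive B cells 3 at 40.9% and plasma cells 1 at 41.2%. The promoter segments of Irf1, Irf5 and Irf8 changed by 0.79 to 3.54 points in plasma cells, under the limit of 5 points. Among 33 stretches of neighbouring CpGs, a unit added after the data were seen, 18 were lower in plasmablasts and 23 in plasma cells, beside 48.4% and 67.5% of all stretches. Without naive B cells 2 the count in plasmablasts was 11. Among the segments it was 3 in place of 1 in plasmablasts without naive B cells 1 or without plasma cells 1.

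Between plasmablasts and plasma cells no single CpG of the 247 was called by the quasi-binomial model or by limma (0.583% of all tested CpGs were lower and 0.000842% higher). At an unadjusted p under 0.05, 68 were lower and 2 higher in plasma cells by the former, and 66 and 1 by limma. One CpG was called without naive B cells 1 or without plasma cells 3, and 2 without plasmablasts 1 or without plasma cells 1. Of the 56 CpGs lower in plasma cells than in naive B cells, 53 had a plasmablast mean between the other 2 stages, 2 had one at or below the plasma cell mean, and 1 (Irf8 at -4421 bp) had one above the naive B cell mean. The 56 were picked for a wide gap between those 2 stages, which by itself favours a plasmablast mean between them. The share over all CpGs lower in plasma cells was not counted.

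The other genes of the pathway were read as whole loci from lists chosen with earlier results of these data known, beside 26.1% of all gene loci lower in plasmablasts and 67.8% in plasma cells. Of 6 IRF relatives and binding proteins 3 were lower in plasma cells, among them Irf2bpl (by 17.2 points, adjusted p = 0.000175). Irf3, which acts in antiviral sensing, was low throughout (2.46% to 0.509%) and not called. Of 3 partners of IRF proteins 1 was lower in plasmablasts and 2 in plasma cells, led by Batf3 (28.9 points), while Spi1 was not called (70.8% to 65.7%, adjusted p = 0.323). Of 15 receptors and signalling genes 5 and 12 were lower. The interferon receptor chain Ifnar2 fell by 32.9 points in plasma cells and its partner chain Ifnar1 stood at 1.24% and 0.477%. Of 13 interferon-induced genes 2 and 11 were lower, led by the immunoproteasome gene Psmb9 (31.8 points), with the RNA sensor gene Ddx58 not called (5.97 points). Of 11 genes that Irf4 or Irf8 act on in B cells 6 and 11 were lower, from the cytokine gene Il10 (54.8 points) to Mdm2 (10.0 points). The median change in plasma cells over these 5 lists was -9.71, -23.1, -17.2, -18.7 and -19.1 points, beside -15.7 points over all 14220 genes.

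By Euclidean distance over the 9 libraries, on equally weighted levels of genes with at least 5 CpGs, the genes most like Irf4 included Ahsa1 and Rem2 (11.5 and 12.3 points away), and those most like Irf8 included Cmtm8 and Zcchc14 (2.39 and 2.42 points away). Ahsa1 encodes a partner of the chaperone HSP90 and had 30.4%, 12.3% and 7.72% in the 3 stages over 10 CpGs. Cmtm8 had 50.03%, 43.8% and 38.5% over 29 CpGs.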

How the data were processed

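The members and gene lists were chosen with earlier results of these data known. Per the submitters' processing notes the authors used Bismark and Bowtie2 with the mm9 build, with no versions named. The deposited table gives methylated and unmethylated read counts per CpG and library, a methylation fraction that equals methylated over total counts, the closest gene, and overlaps with promoters, exons and introns. The authors' deposited lists of differential CpGs use a false discovery rate of 0.01, a change of at least 0.2 in the fraction and 10 reads. CpGs with at least 10 reads in all 9 libraries were tested. A class was given in the order promoter, exon, intron, intergenic. The file states a promoter window of 2500 bp upstream to 500 bp downstream, but 94.1% of CpGs 1 to 2500 bp upstream and 8.17% of those 1 to 500 bp downstream carried their gene's promoter.

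A quasi-binomial logistic model of the counts was fitted per CpG over all libraries in R 4.3.3 (limma 3.58.1), with an F test and Benjamini-Hochberg adjustment over all CpGs. The dispersion, moderated with limma, was taken from CpGs at 10 to 90%, because the prior over all CpGs as first planned failed on simulated data. It came to 1.27 for every CpG, so the p of a CpG does not reflect its own spread between libraries. A call needed an adjusted p under 0.01 and 20 points, the authors' minimum, or 5 points for reads summed over a gene (5 CpGs or more), over a gene and class (3 or more), or over neighbouring CpGs no more than 1000 bp apart (3 or more). Differences are of pooled levels, and printed levels are means of libraries with the SD. Whether replicates came from separate animals is not stated, so p-values may measure only technical spread. Correlations of replicate libraries were 0.956 to 0.986. The 9 libraries gave a median of 25 to 39 reads per member CpG, and limits for a level of 0% (3 reads) cover counting error only.

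CpGs were named by rule: all at Irf4, and at each other gene the 3 with the largest called fall in plasma cells, all that rose, and the 2 at 80% or more in naive B cells with the smallest change. Pathway genes named are the largest called fall and the smallest change of each list, and a few genes that the rules name are not reported here. Irf2bpl was named after its values were seen. Promoter sequences are from RefSeq, GRCm38.p6. Alternatives covered the coverage minimum, the minimum difference, each library left out, the replicate block, the library set, limma, equal weights and background subtraction.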

Additional observations from a re-analysis of the deposited data

How the results depend on the processing

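No called difference of the named CpGs and loci changed sign under an alternative. Uncalled differences near 0 did at the Irf1 and Irf5 loci, at Irf2 +16977 bp, at Irf4 +1616 bp and at Irf8 +139781 and +139822 bp. The uncalled Irf2 locus in plasmablasts changed by -5.93 points (adjusted p = 0.000687, limma) with equal weights and background subtracted, against 2.33 points from summed reads. The cause of the differences below was not tested unless fewer CpGs or libraries account for them. Of the 23 CpGs lower in plasmablasts, 12 were left at 20 reads (90 CpGs tested), 37 were called at 10 points and 9 at 30 points. In plasma cells, in place of 56, 23 were called at 20 reads, 23 at 30 points, 30 with the library set as a term, 97 of 606 with 10 reads summed per group, and 22 in the low-background set alone. Between plasma cells and plasmablasts 1 CpG was called at 10 points in place of 0. Loci lower in plasmablasts (1) numbered 0 at 5 or 20 reads and at 10 CpGs or more, 2 with equal weights, 3 with background subtracted and 2 in the high-background set. Loci lower in plasma cells (2) numbered 4 with the library set, with equal weights or with background subtracted, 1 at 10 CpGs or more and 0 in the low set. Segments lower in plasmablasts (1) numbered 2 at 5 reads, 3 at 20 reads, with the library set, with equal weights, with background subtracted or in the high set, and 0 at 5 CpGs or more. Segments lower in plasma cells (5) numbered 2 in the low set, and those lower in plasma cells than plasmablasts 2 at 20 reads in place of 0. Stretches lower in plasma cells (23) numbered 15 in the low set, and those lower than in plasmablasts (2) numbered 0 with the library set and 0 by limma. Leaving out 1 library at a time gave 17 to 27, 47 to 60 and 0 to 2 CpGs for plasmablasts, plasma cells and the step between them, 0 to 1, 2 to 4 and 0 to 3 loci, 1 to 3, 4 to 6 and 0 to 4 segments, and 11 to 17, 18 to 24 and 0 to 5 stretches. Between plasma cells and plasmablasts the counts of 3 loci and 4 segments came without plasma cells 1, and 4 segments also without naive B cells 1.

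Replicate numbers gave no sign of pairing between the samples. Same-numbered libraries of different stages correlated at -0.0287 to 0.0302 in their deviations (9 pairs), and others at -0.0368 to 0.0419 (18 pairs). Counting error at these depths can hide a pairing, so these values cannot show that the numbers do not pair. With the replicate block 0 loci were lower in plasmablasts (Irf4, adjusted p = 0.013) and 5 stretches were lower in plasma cells than in plasmablasts. The Irf1 gain at +16358 bp in plasma cells then had an adjusted p of 0.0261, and it was also lost at 30 points and in the low set (adjusted p = 0.277). A median of 25 to 39 reads per library limits what a single CpG can show.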
